A study of Mus musculus with 12 samples.

Results

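The amino acid transporters described here are the genes of the solute carrier (Slc) families 1, 3, 6, 7, 36, 38 and 43. They were picked by the spelling of the gene symbol, which took 62 of the 30743 symbols in the deposited table. The families were chosen with earlier results of these data known. Of these, 61 encode transporters or their subunits, and the last, Slc7a6os, is a neighbour of Slc7a6 that shares its name only. Livers came from male C57BL/6J fetuses at 15 ± 0.5 dpc (days post coitum), 6 from control dams on a diet with 13.5 kcal% fat and 6 from dams on a high-fat diet (HFD) with 60 kcal% fat. The dams had been on their diet for 12 to 14 weeks. PolyA RNA of each whole liver was sequenced, and the sources used here do not tie the fetuses to litters. In whole livers, fewer cells of a type and less RNA per cell cannot be told apart.

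The value analysed for each gene is the authors' mean over all 12 livers, an average log2 CPM (counts per 1000000 reads). It holds a small prior count, which keeps genes without reads above 0, and CPM below are this average taken off the log scale. The prior count adds 0.152 CPM to every value, which is a large part of the lowest ones. Levels per kilobase have the prior count removed for single genes but not in family shares, and are used to compare genes. They refer to the length of the transcript with the longest coding part, a length chosen after seeing the data. The coding length is given beside them where it turns an order or moves a ratio by over 1.5 times. Values of single livers and a comparison of the diets were not analysed here, so no level below has an SD and no test of HFD against control is given. Intervals cover counting error only. They rest on reads that were worked back from the average, with a mean effective library of 13129752 reads and a total of 157557021 reads over the livers.

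Amino acid transporters move amino acids across the cell membrane or out of lysosomes, and each family has its own way of doing so. Members of Slc1 exchange or concentrate amino acids with sodium, Slc38 carries small neutral amino acids such as glutamine and alanine with sodium, and Slc36 uses protons. Slc7 light chains are exchangers that reach the membrane only when bound to an Slc3 heavy chain, Slc43 lets large neutral amino acids pass by facilitated diffusion, and Slc6 takes up glycine, taurine, neurotransmitters and neutral amino acids. In the fetal liver they supply both the growing hepatocytes and the blood cells that mature there.

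The control of several of these genes by amino acid supply is well known. When an amino acid is short, the transcription factor ATF4 binds composite sites with the core TGATGNAA. The sites that this core marks in 2 member promoters are shown here because Slc7a11 and Slc1a4 are known ATF4 targets and both had reads above 1 CPM. The sequences are RefSeq promoters of GRCm38.p6, from 250 bases before the start site to 50 after it, written 5′ to 3′ on the strand of the gene, with the matches on either strand in capitals.
Slc7a11, chr3:50443564-50443863, minus strand: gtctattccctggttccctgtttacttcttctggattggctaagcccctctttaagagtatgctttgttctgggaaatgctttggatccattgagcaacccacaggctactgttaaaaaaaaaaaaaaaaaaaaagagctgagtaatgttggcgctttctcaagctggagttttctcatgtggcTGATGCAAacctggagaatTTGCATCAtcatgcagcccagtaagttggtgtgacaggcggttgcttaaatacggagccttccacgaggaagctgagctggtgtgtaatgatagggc
Slc1a4, chr11:20332664-20332963, minus strand: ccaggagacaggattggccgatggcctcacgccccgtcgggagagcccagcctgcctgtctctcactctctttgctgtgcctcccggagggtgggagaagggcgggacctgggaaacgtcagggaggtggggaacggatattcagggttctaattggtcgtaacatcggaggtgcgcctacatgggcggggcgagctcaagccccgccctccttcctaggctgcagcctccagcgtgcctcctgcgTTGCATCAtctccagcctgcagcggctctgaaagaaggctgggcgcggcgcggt
Counted from the first transcribed base as 0, the matches of Slc7a11 lie at -66 to -59 and -47 to -40, and that of Slc1a4 starts at -4. The promoter table held 64 promoters of 43 of the 61 transporter genes, and 4 of the 64 (6.25%) contained the core, against 3.97% of all 32851 promoters. The other matching promoters belong to Slc7a7, a light chain for cationic amino acids, and they overlap each other. The motifs AGATAA and TGATAA, which the erythroid factor GATA1 can bind, stood in 18.8% of member promoters and 18.6% of all promoters. They stood in 2 of 28 promoters (7.14%) of members at or above 1 CPM and in 10 of 36 (27.8%) of members under 1 CPM, a split given as a description without a test. The 28 promoters belong to 20 genes and the 36 to 23, so promoters of the same gene are counted apart. The 2 groups also differ in base content, with a median of 15 CG dinucleotides against 7. A match is a string of letters in this window and not a measured site.

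Of the 62 genes, 29 reached 1 CPM, or 46.8%, against 33.1% of all rows in the table. All rows go beyond the 18715 matched to annotated coding genes, so the gap is not particular to transporters. Of coding genes with 1 annotated coding transcript 53.5% reached 1 CPM, and of those with more than 1 it was 38.9%. For the transporters these shares were 48.0% and 44.4%. A level of 100 CPM was reached by 7 members (11.3%), against 5.31% of all rows, a share that was not taken among coding genes alone. In 7 members no reads were counted, whereas 11091 rows, or 36.1% of the table, were without reads. Among coding genes, 1433 of 8024 with 1 coding transcript and 2762 of 10691 with more than 1 were without reads. For the transporters it was 1 of 25 and 6 of 36. Members without reads sat at -2.71 log2 CPM, and the highest member reached 9.26 log2 CPM.

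**Figure D1:**
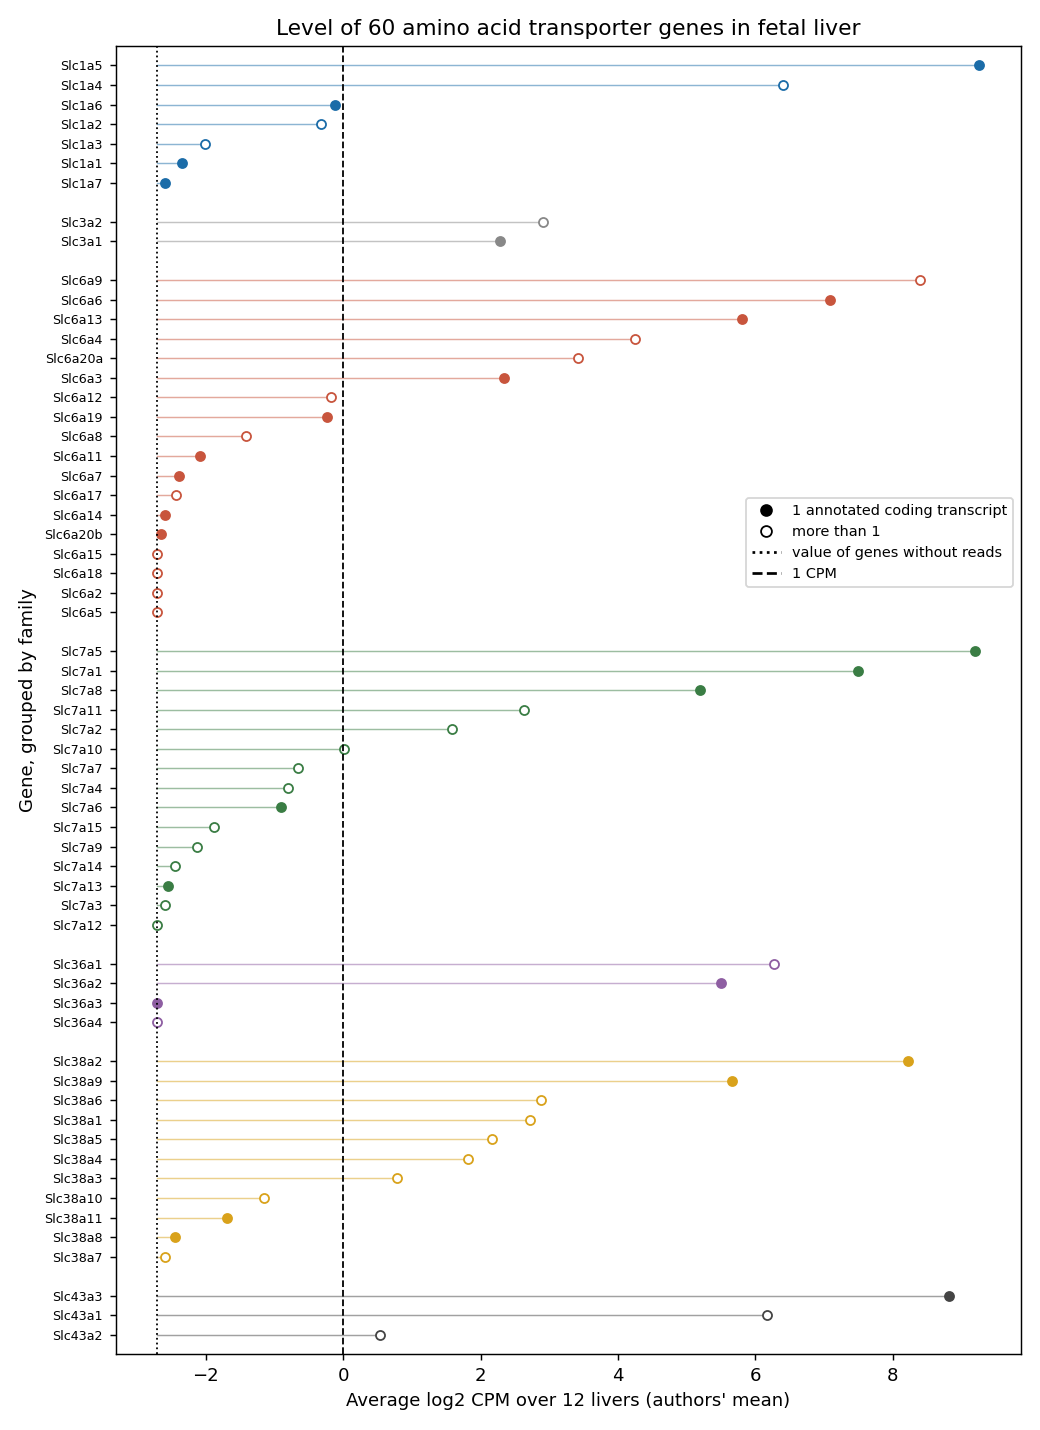
Each point is the authors' average log2 CPM over 12 livers of 1 of the 60 transporter genes drawn, grouped by family, with the dotted line at the value of genes without reads and the dashed line at 1 CPM. Filled points are genes with 1 annotated coding transcript, open points those with more; Slc1a5 is the highest at 9.26, and 7 genes lie on the dotted line.

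Few genes carried most of the reads. The 61 transporters summed to 3117 CPM, or 0.312% of all counted reads. The 2 highest members held 38.5% of that sum, the 5 highest 73.3% and the 14 highest 97.0%. By family, Slc7 held 26.2% of the summed CPM, Slc1 22.5%, Slc6 18.2%, Slc43 16.8%, Slc38 12.0%, Slc36 3.93% and Slc3 0.398%. Of the Slc43 CPM, 86.0% came from Slc43a3, which is known for carrying purine bases. Longer transcripts yield more reads, so the shares were also taken per kilobase of transcript, with the prior count left in. On that scale, chosen after seeing the data, Slc1 came to the front with 24.8%, Slc6 held 22.3%, Slc7 and Slc43 20.6% each, and Slc38 dropped to 7.82%. Per kilobase of coding length Slc7 stayed first with 26.6%, ahead of Slc1 with 22.2%, while Slc6 fell to 15.8% and Slc38 held 12.8%. The family with the highest share therefore depended on which length was used.

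**Figure D2:**
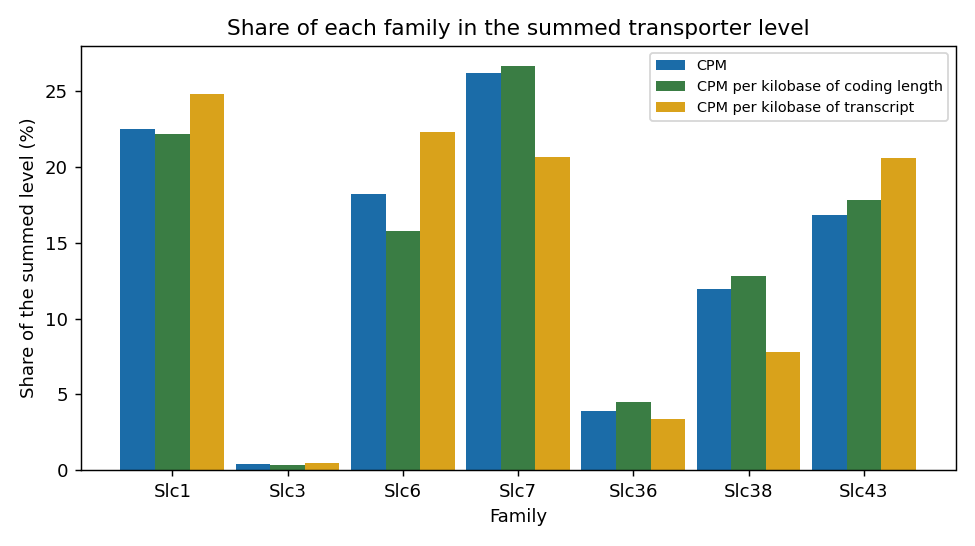
Bars give the share (%) of each family in the summed level of the 61 transporter genes, as CPM (blue), as CPM per kilobase of coding length (green) and as CPM per kilobase of transcript (yellow). Slc7 is highest in CPM (26.2%) and per coding length (26.6%), and Slc1 per kilobase of transcript (24.8%).

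A second property, the number of annotated coding transcripts, moved with the level over all coding genes, and less clearly among the transporters. Among 18715 coding genes of the table that were matched to the GENCODE M21 annotation, those with 1 coding transcript had a median of 0.70 log2 CPM, and those with more than 1 had -1.24. At least 5 log2 CPM was reached by 25.8% of the former and by 10.7% of the latter. At this cut the transporters split likewise, and 10 of 25 genes with 1 coding transcript and 4 of 36 with more than 1 reached it. Those 4 were Slc6a9, Slc1a4, Slc36a1 and Slc43a1. At 1 CPM the split among transporters was small, with 12 of 25 and 16 of 36. Their medians lay close, at -0.12 and -0.49 log2 CPM. The 13 transporters with 4 or more coding transcripts had the highest median, 0.78 log2 CPM, which goes against the order over all coding genes. Low values also stood at transporters with 1 coding transcript, such as Slc1a6 (0.917 CPM), Slc6a19 (0.848 CPM), Slc7a6 (0.535 CPM) and Slc36a3, listed at 0. The part of transcript number in the level of any member was not tested.

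**Figure D3:**
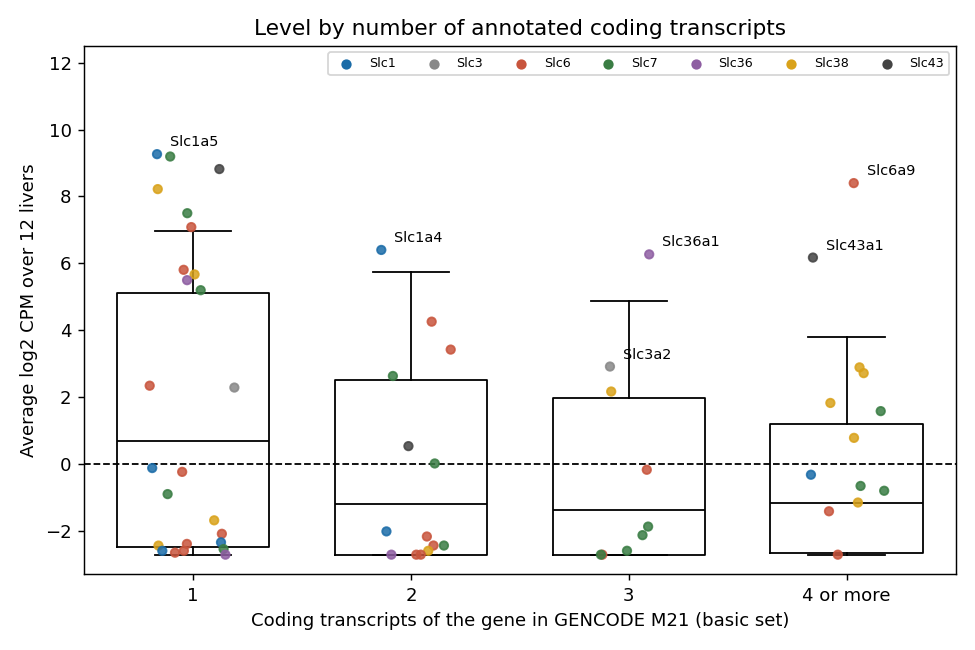
Boxes show the median and quartiles, and whiskers the 10th and 90th percentiles, of the average log2 CPM of 18715 coding genes by the number of coding transcripts in GENCODE M21. Coloured points are the 61 transporters; above 5 log2 CPM lie 10 genes with 1 coding transcript and 4 with more.

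Defining markers of the tissue were listed unevenly. The hepatocyte genes Alb (63314 CPM) and Afp (54525 CPM) and the erythroid gene Klf1 (692 CPM) were abundant, as a fetal liver label requires. Yet Hnf4a, a core hepatocyte transcription factor, was listed at 0, as were the endothelial marker Pecam1, the mesenchymal marker Pdgfrb and the macrophage marker Adgre1. Alas2, which starts heme synthesis in red cells, stood at 0.704 CPM. Rptor, an obligate subunit of the kinase complex mTORC1, had about 24 reads over all livers, while Mtor, its partner, had 128 CPM. At 1 CPM or above were 5 of 6 hepatocyte markers, 5 of 5 granulocyte and monocyte markers, 4 of 4 megakaryocyte markers, 4 of 5 endothelial, 4 of 5 mesenchymal and 2 of 5 macrophage markers. The erythroid list is given here by Klf1 and Alas2 only, and its 2 adult globin genes were not analysed here. A low value or a 0 in this table was therefore read only as a listed value and not as absence of the transcript.

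The neutral amino acid exchangers of Slc1 headed the list. Slc1a5 encodes ASCT2, an exchanger through which cells take up glutamine. It lies on chromosome 7 of GRCm38 from 16781340 to 16798274 and had 615 CPM, more than 99.1% of all rows with reads. Per kilobase of transcript its level was 222 CPM, also the highest of all members, whereas per kilobase of coding length Slc7a5 was higher. Slc1a4 (ASCT1, a carrier of serine, alanine and cysteine) on chromosome 11 from 20302180 to 20332713 had 84.4 CPM. Per kilobase, Slc1a5 was 10.4 times Slc1a4 (counting interval 10.2 to 10.6), and 6.99 times when scaled by coding length.

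The glutamate transporters of the same family were low without exception in this table. Slc1a6 had 0.917 CPM and Slc1a2 0.799 CPM, the latter encoding the main glutamate transporter of astrocytes. Slc1a3, Slc1a1 and Slc1a7 had about 15, 7 and 2 reads over all livers. Together these 5 genes made up 0.0746% of the summed CPM, and none reached 1 CPM.

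Among the light chains, 1 gene stood out. Slc7a5 encodes LAT1, which brings leucine and other large neutral amino acids into dividing cells in exchange for glutamine. On chromosome 8 from 121881150 to 121907694, it had 585 CPM and 166 CPM per kilobase. It made up 92.7% of the CPM of the 10 light chains. Slc1a5 and Slc7a5 were close to each other: their ratio per kilobase was 1.34, and with coding length in place of transcript length it was 0.969, so that their order turned with the length used. Slc7a8 (LAT2), a further exchanger of neutral amino acids, followed with 36.6 CPM. Slc7a11 (xCT), which imports cystine for glutathione synthesis, had 6.19 CPM, and Slc7a10, an exchanger of small neutral amino acids, 1.01 CPM, or 0.857 CPM with the prior count removed. Slc7a7 and Slc7a6, which export cationic amino acids, had 0.633 and 0.535 CPM, and Slc7a15 had about 19 reads. Slc7a9, the partner of Slc3a1, and Slc7a13 had about 12 and 3 reads, and Slc7a12 was listed at 0.

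The heavy chain that most of these light chains need was far lower. Slc3a2 encodes CD98, and on chromosome 19 from 8706882 to 8723369 it had 7.53 CPM or 2.62 CPM per kilobase. Slc7a5 was thus listed at 63.5 times the level of its partner per kilobase (counting interval 59.9 to 67.2), at 68.2 times per kilobase of merged exons and at 87.6 times per kilobase of coding length. Slc7a8 alone was at 3.41 times the level of Slc3a2 per kilobase of transcript and 5.26 times per kilobase of coding length. In the annotation Slc3a2 has 3 coding transcripts and Slc7a5 has 1, and neither shares an exon with another gene. The part of transcript number in this ratio was not tested. The other heavy chain, Slc3a1, which pairs with Slc7a9 to take up cystine and cationic amino acids in kidney and gut, had 4.87 CPM. It exceeded Slc7a9 by 53.0 times per kilobase (counting interval 30.0 to 93.9). Of the exonic bases of Slc3a1, 26.5% overlap Prepl, and since the library kit does not mark strand, reads there cannot be assigned to either gene.

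The cationic amino acid group of Slc7 was taken as Slc7a1 to Slc7a4 and Slc7a14. Slc7a1 (CAT1), the widespread carrier of arginine and lysine, had 181 CPM and made up 97.9% of the CPM of the group. It lies on chromosome 5 from 148327410 to 148399904. Slc7a2 (CAT2), known from adult liver, had 2.99 CPM, and Slc7a1 was 32.7 times higher per kilobase. That ratio was 69.1 with coding length and 76.9 with merged exons. Slc7a4 had 0.573 CPM, and Slc7a14 and Slc7a3 had about 5 and 2 reads.

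In the Slc38 family the sodium-coupled system A transporter Slc38a2 (SNAT2) was highest. Its gene, on chromosome 15 from 96687392 to 96699730, had 298 CPM and accounted for 79.8% of the CPM of the family. Slc38a1 (SNAT1) had 6.56 CPM and Slc38a4 (SNAT4), an imprinted gene of liver and placenta, 3.54 CPM. Slc38a2 was 72.4 times Slc38a1 per kilobase of transcript, 44.7 times per kilobase of coding length and 107 times per kilobase of merged exons. It was 74.2, 95.4 and 77.8 times Slc38a4 on the same scales. Slc38a9, the lysosomal transporter that reports arginine to mTORC1, had 50.8 CPM and ranked next. Slc38a6 had 7.40 CPM, and the glutamine transporters Slc38a5 and Slc38a3, of system N, had 4.48 and 1.72 CPM. Slc38a10 had 0.449 CPM, and Slc38a11, Slc38a8 and Slc38a7 had about 25, 5 and 2 reads.

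Slc6 has the most members, 19 genes, of which 6 reached 1 CPM. Slc6a9 encodes GLYT1, which takes up glycine, the building block that red cell precursors join with succinyl-CoA to begin heme. It lies on chromosome 4 from 117834506 to 117875198 and had 337 CPM, the highest of any member with more than 1 coding transcript. Of its exonic bases, 42.3% overlap Ccdc24 or Gm17114. Per kilobase of its transcript with the longest coding part it had 160 CPM, and per kilobase of merged exons 91.6 CPM. Slc6a5, the other glycine transporter and a neuronal gene, was listed at 0.

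The taurine transporter Slc6a6, on chromosome 6 from 91684053 to 91759066, had 135 CPM. Slc6a8, which takes up creatine, had about 35 reads over all livers. Slc6a13 (GAT2), a hepatic transporter of GABA and taurine, had 55.9 CPM and 97.7% of the CPM of the GABA and betaine group. Slc6a12, for betaine, had 0.886 CPM, and Slc6a11, a GABA transporter of brain, had about 13 reads.

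The monoamine transporters of Slc6 carry signalling amines. Slc6a4, for serotonin, had 19.1 CPM and Slc6a3, for dopamine, 5.06 CPM, while Slc6a2, for noradrenaline, was listed at 0. Beside them, 3 of 5 neuronal markers reached 1 CPM, the highest being Tubb3 with 2.24 CPM, and the 5 summed to 5.21 CPM with the prior count removed, less than Slc6a4 alone. Megakaryocyte markers ranged from 4.99 CPM for Itga2b to 251 CPM for Ppbp. Platelets are known to take up serotonin by Slc6a4. The part of these cells in the level was not tested. Of the neutral amino acid carriers of Slc6, Slc6a20a, a carrier of proline, had 10.7 CPM, and Slc6a19, the main neutral amino acid carrier of gut and kidney, 0.848 CPM. Slc6a20b, a close relative of Slc6a20a, had about 1 read, and reads may be shared between the pair, so that their separate values are uncertain. Of the exonic bases of Slc6a20a, 14.3% overlap Ccr9, Gm17120 or Gm17200, and of those of Slc6a20b 28.5% overlap Sacm1l. Slc6a7, Slc6a17 and Slc6a14 had about 6, 5 and 2 reads, and Slc6a15 and Slc6a18 were listed at 0.

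Among proton-coupled transporters, Slc36a1, which exports amino acids from lysosomes, had 77.0 CPM and Slc36a2, a carrier of glycine and proline, had 45.1 CPM. Per kilobase of transcript their order was turned, with 14.6 CPM for Slc36a1 and 18.5 CPM for Slc36a2, but per kilobase of coding length it was not, with 53.9 and 31.3 CPM. Both lie on chromosome 11, as does Slc36a3. Slc36a3 and Slc36a4 were listed at 0.

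All 3 genes of Slc43 reached 1 CPM. Slc43a3, on chromosome 2 from 84936579 to 84958509, had 451 CPM and 175 CPM per kilobase of transcript, the next level on that scale after Slc1a5. Per kilobase of coding length it had 299 CPM and stood behind both Slc7a5 (381 CPM) and Slc1a5 (369 CPM). It belongs to the family by sequence but is known for carrying purine bases. Slc43a1 (LAT3), its neighbour on the same chromosome from 84838850 to 84863594, had 72.0 CPM. It carries leucine and other large neutral amino acids, and Slc43a3 was 6.17 times higher per kilobase (counting interval 6.05 to 6.29). Slc43a2 (LAT4) had 1.45 CPM. Slc7a6os, which is no transporter, had 4.77 CPM, above the 0.535 CPM of Slc7a6, and the annotated exons of the pair do not overlap.

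Genes around the transporters were described with lists of related function. Of 19 other amino acid carriers, 9 reached 1 CPM. Slc16a10, which carries aromatic amino acids, was the highest with 406 CPM, and the mitochondrial glycine carrier Slc25a38, needed for heme synthesis, had 278 CPM. The mitochondrial ornithine carrier Slc25a15 had 129 CPM, and Slc25a13, known from liver as citrin, was listed at 0. Of 22 genes of amino acid sensing by mTORC1 found in the table, 17 reached 1 CPM, with a median of 3.52 log2 CPM. All 9 genes listed for the response to amino acid deprivation had reads, and 8 of them reached 1 CPM. They were led by Asns (756 CPM), the asparagine synthetase, and Atf4 (667 CPM). The list as drawn up holds Eif2a (3.15 CPM), a separate initiation factor, beside Eif2s1 (263 CPM), and both counts include Eif2a. For glutathione, which is made from the cystine that Slc7a11 imports, Gclm had 477 CPM and Gclc 283 CPM, whereas Gss was listed at 0. The median of the 62 symbols chosen, Slc7a6os included, was -0.21 log2 CPM, against -2.17 over all rows. Among matched coding genes alone it was 0.70 with 1 coding transcript and -1.24 with more than 1.

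**Figure D4:**
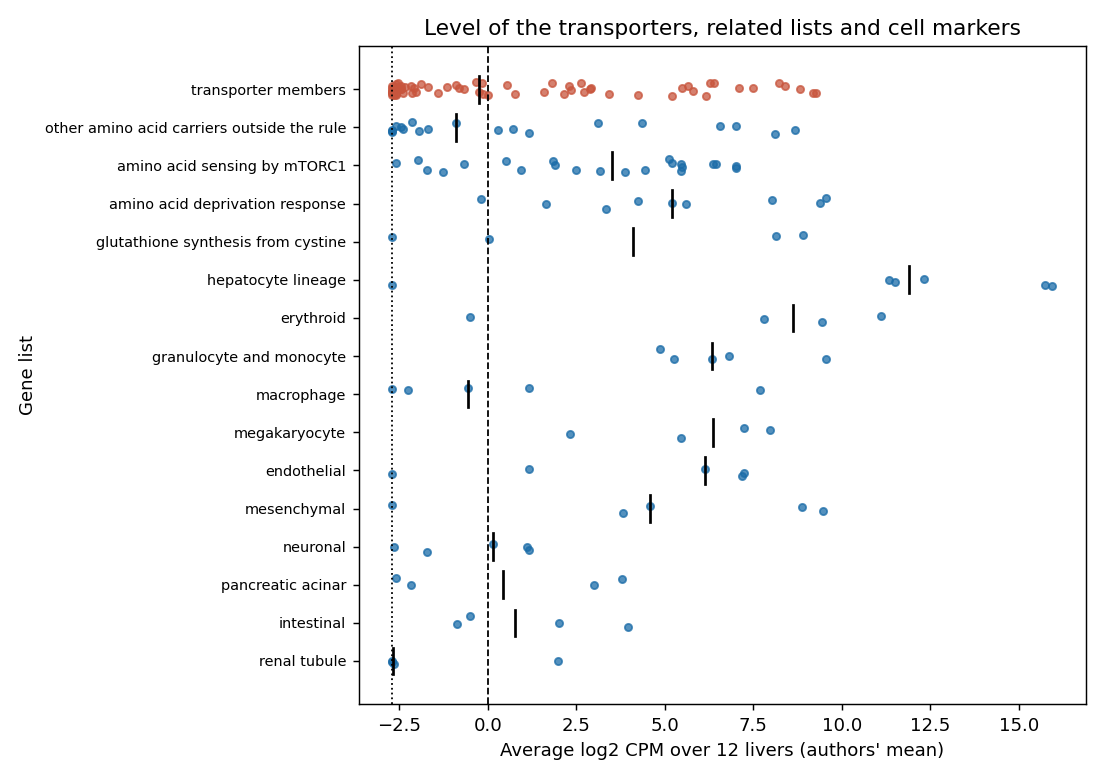
Points give the average log2 CPM over 12 livers of the transporters (red) and of genes in related lists and cell marker lists (blue), with a black bar at each median, the dotted line at the value of genes without reads and the dashed line at 1 CPM. Genes of most liver and blood cell lists lie on both sides of 1 CPM, and some lie on the dotted line.

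Markers of neighbouring organs were low and uneven. At 1 CPM or above were 2 of 4 intestinal, 2 of 4 pancreatic and 1 of 4 renal tubule markers. The highest were Fabp2 of the intestine with 15.4 CPM and Cela1 of the pancreas with 13.7 CPM. Against these, Cdx2 and Lgals4 of the intestine had 0.709 and 0.544 CPM. Pnlip and Ptf1a of the pancreas had about 2 and 11 reads, and Umod and Slc12a1 of the kidney were listed at 0. Slc3a1, Slc6a20a and Slc6a19 are also genes of gut or kidney, with 4.87, 10.7 and 0.848 CPM. Whether tissue of those organs contributed to their levels was not tested.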

How the data were processed

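Total liver RNA of 6 control and 6 HFD fetuses was polyA-selected (TruSeq v2) and sequenced. According to the submitters' processing notes, the authors used cutadapt 1.2.1, Subread 1.3.6-p1, edgeR and the build mm10. The study annotated genes with biomaRt. The tool that counted reads per gene is not given in the sources used here. The authors deposited an average log2 CPM for each of 30743 symbols, on the log2 scale, without columns of single livers. The other columns hold the authors' comparison of the diets (fold changes, p-values and adjusted p-values with a common and a tagwise dispersion) and were not used. The planned test of HFD against control needs counts of single livers and was not run.

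Reads were worked back from the average with a prior count of 2. The value shared by rows without reads then gives the mean effective library. Of 4524 rows with 1 to 12 reads, 99.4% came within 0.1 read of a whole number. Levels per kilobase of single genes had the prior count taken off, and family shares per kilobase kept it. Transcript length was that of the transcript with the longest coding part in GENCODE M21 (basic set, GRCm38, the build of mm10). Counting intervals of ratios are approximate 95% intervals, taken on the log scale from the Poisson error of both read counts. Every member at or above 1 CPM was to be named with its value. Results of 1 member and 1 marker are not reported here. The members and lists were chosen with earlier results of these data known. Computations ran in Python 3.11.15 (scipy 1.17.1, pandas 2.3.3, numpy 2.4.6) and plots were drawn with matplotlib 3.10.9.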

Additional observations from a re-analysis of the deposited data

How the results depend on the processing

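At 1 CPM 29 members passed. At 2 CPM 26 passed, at 0.5 CPM 36, with the prior count taken off 28, and with the second average in the table, which equals the first in every row, 29. The family shares of the summed CPM moved by no more than counting error when members under 1 CPM were left out or the prior count was taken off, and moved with each length. Per kilobase of coding length, Slc1 had 22.2%, Slc3 0.356%, Slc6 15.8%, Slc7 26.6%, Slc36 4.51%, Slc38 12.8% and Slc43 17.8%. With lengths chosen after seeing the data, the shares per kilobase of merged exons were 27.0%, 0.512%, 16.6%, 22.4%, 3.65%, 8.29% and 21.5% in the same order. Per kilobase of transcript they were 24.8%, 0.488%, 22.3%, 20.6%, 3.38%, 7.82% and 20.6%. Slc7 was the highest family in CPM and per coding length, and Slc1 with the other lengths. DESeq2, the fit without a filter on low counts and leaving out single livers were not run, because they need counts of single livers. No paired analysis was possible because the table was analysed as 1 average over all livers, without columns of single livers. Counting error is small for genes above 1 CPM, and the spread between livers is not known from the average.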
